A study of Mus musculus with 12 samples.

Results

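The genes described here are the transcription factors and feedback genes of the integrated stress response (ISR): the transcription factors Atf4, Atf5, Atf3, Ddit3 (CHOP), Cebpb and Cebpg, the transcriptional cofactor Nupr1, and the feedback or effector genes Trib3, Ppp1r15a (GADD34) and Chac1. They were chosen by name, with earlier results of these data known. All 10 were found among the 21671 genes of the expression table. FL5.12 is an established mouse B-cell progenitor line of BALB/c origin, described in its label as prolymphocytic, that grows in interleukin-3. All groups, controls included, were a selected pool of these cells expressing MycER, a Myc protein fused to a hormone-binding domain that 4-hydroxytamoxifen (OHT) switches on. MycER was delivered by a retrovirus, so that the transgene does not follow the control of the endogenous Myc gene. There were 3 biological replicates of untreated cells, of cells with 100 nM OHT for 72 h in all (OHT), of cells with 135 nM IACS-010759 for 24 h (IACS), and of cells primed with OHT for 48 h that then received IACS-010759 for 24 h with OHT still present (OHT_IACS). IACS-010759 inhibits complex I of the mitochondrial electron transport chain (ETC). The paper states that before experiments with this drug, all cells were passaged in medium with less glucose than the regular one.

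In the ISR, kinases that sense different kinds of stress phosphorylate the translation factor eIF2. General translation falls, while the mRNAs of ATF4, ATF5, CHOP and GADD34 carry upstream open reading frames that let them be translated. ATF4 is a basic leucine zipper (bZIP) protein that binds DNA together with partners such as C/EBP beta and C/EBP gamma, and raises genes of amino acid transport and synthesis as well as regulators that shape or end the response. RNA-seq measures the mRNA of these genes and not their translation.

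The pairing of ATF4 with C/EBP proteins recognises a composite site, the C/EBP-ATF response element. Promoter sequences are shown for the genes of the list that hold this motif, or the palindromic cAMP response element TGACGTCA bound by ATF and CREB proteins, in the RefSeq window from 250 bases before to 50 bases after the transcription start. The sequences are from the build GRCm38.p6, are written 5′ to 3′ along the gene's own strand, and have the motif in capitals. The stretch around each match was chosen after the matches were seen.
Atf3, chr1:191183396-191183483, minus strand: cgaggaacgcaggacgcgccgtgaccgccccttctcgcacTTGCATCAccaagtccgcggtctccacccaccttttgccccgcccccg
Nupr1, chr7:126625533-126625620, minus strand: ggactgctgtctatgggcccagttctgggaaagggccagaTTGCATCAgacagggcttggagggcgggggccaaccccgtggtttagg
Chac1, chr2:119351009-119351096, plus strand: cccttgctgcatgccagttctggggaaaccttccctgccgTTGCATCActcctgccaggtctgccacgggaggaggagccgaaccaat
Trib3, chr2:152344029-152344056, minus strand: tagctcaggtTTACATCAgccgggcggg
Ppp1r15a, chr7:45526269-45526320, minus strand: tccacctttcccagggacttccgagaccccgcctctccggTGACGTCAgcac

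The letters TGATGNAA, searched on both strands, were found in 4 of the 10 genes (11 RefSeq starts), against 4.51% of all 27025 genes with a promoter sequence. They lay at bases -110 to -103 of both Atf3 and Nupr1, at -193 to -186 of Chac1, and at 15 to 22 of Trib3, inside the transcribed part, with base 1 as the first transcribed base. All 4 matches were on the opposite strand, so that the printed capitals are the reverse complement. TGACGTCA was found at -12 to -5 of Ppp1r15a, and in 2.03% of all genes. In all, 6 motifs were searched. The longer form TGATGCAAT was in Nupr1 only among the 10 (0.222% of all genes) and overlaps its TGATGNAA. The first 6 letters TGACGT were in Atf3 and Ppp1r15a (8.37%), and the E-box CACGTG was in Nupr1 (8.09%). The endoplasmic reticulum stress response element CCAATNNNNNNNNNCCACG was in none of the 10 (0.137%). Atf4, Atf5, Ddit3, Cebpb and Cebpg held none of the 6 in this window. A match is a description of the letters and not evidence of binding, and sites outside the window were not searched.

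The deposited values were RPKM (reads scaled by the length of the gene and the total of the library), whose steps gave back whole reads for all 15451 genes above 0. Reads on genes ran from 4199266 to 5762340 per library. Libraries OHT 1 and OHT 3 had the smallest totals, and OHT 2 was the highest of its group for Atf5, Ddit3, Trib3, Nupr1, Cebpb, Cebpg and Ppp1r15a and the lowest for Atf4. Every untreated library had a larger total (13375674 to 14550158) than every OHT_IACS library (11792608 to 11913079). Depth and treatment are thus partly confounded, and a fit with library depth as a covariate cannot fully tell them apart. The number of reads per base of gene levelled off at the top. Within groups, the median slope of log2 reads on log2 library total was 1.42 for genes under 0.05 reads per base and 0.37 for genes with 0.8 to 1.2. Of 15 genes listed as markers of progenitor B-lymphoid cells, 6 had a mean RPKM of at least 1. From the highest these were Csf2rb, Csf2rb2, Ptprc, Il3ra, Cd79b and Cd79a. Another 5 were listed at 0 in every library, among them Pax5, Rag1 and Il7r, and Ebf1, Igll1, Vpreb1 and Flt3 had means below 1. The myeloid markers Mpo and Prtn3 had higher means than Cd79a and Cd79b. These levels do not by themselves show a B-lymphoid identity, which was not tested. The summed RPKM of the 7 myeloid markers in the table was 36.7 to 37.8 in untreated cells, 19.1 to 24.4 with OHT, 27.5 to 35.0 with IACS and 19.1 to 20.7 with OHT_IACS, and its part in the results below was not tested. The summed RPKM stayed at 2.67 or below for T-lymphoid and 0.343 or below for stromal markers in every library.

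Of the 10 genes, 8 could be tested, that is, reached an RPKM of 1 in 3 or more libraries. Atf3, a stress-induced repressor and activator of the same bZIP family, was listed at 0 in all 12 libraries. Chac1, an enzyme that degrades glutathione, had 1 read in library IACS 1, 1 read in OHT_IACS 1 and none in the other 10. Since 3 reads over the 3 libraries of a group would be an RPKM of 0.0453 to 0.0545 for Chac1, its level could not be told from 0 at this depth in any group. Both genes hold the C/EBP-ATF letters printed above, as do Nupr1 and Trib3, which were well above 0 in every library.

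By level per length, Atf4 was the highest gene of the list in every group, with a mean RPKM of 78.9 over the 12 libraries that exceeded that of 99.6% of genes. In untreated cells Cebpg followed with 13.2 ± 0.321 (SD, n = 3), then Nupr1 with 8.83 ± 0.329, Ddit3 with 7.43 ± 0.174 and Ppp1r15a with 6.45 ± 0.576. Trib3 (5.73 ± 0.464) and Cebpb (5.64 ± 0.494) came next and did not differ from each other beyond the spread of their libraries, and neither did Ppp1r15a and Trib3. Atf5 was lowest with 3.16 ± 0.314. With IACS the order was Atf4 (81.2 ± 5.16), Nupr1 (26.5 ± 2.82), Trib3 (23.0 ± 0.838), Cebpg (18.1 ± 0.576), Ddit3 (17.1 ± 0.458), Atf5 (11.1 ± 0.966), Ppp1r15a (8.65 ± 0.827) and Cebpb (6.49 ± 0.153). Nupr1 and Trib3 overlapped there, as did Cebpg and Ddit3. Trib3 and Atf5 had moved up in the order, and Ppp1r15a and Cebpb had moved to its end.

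**Figure D1:**
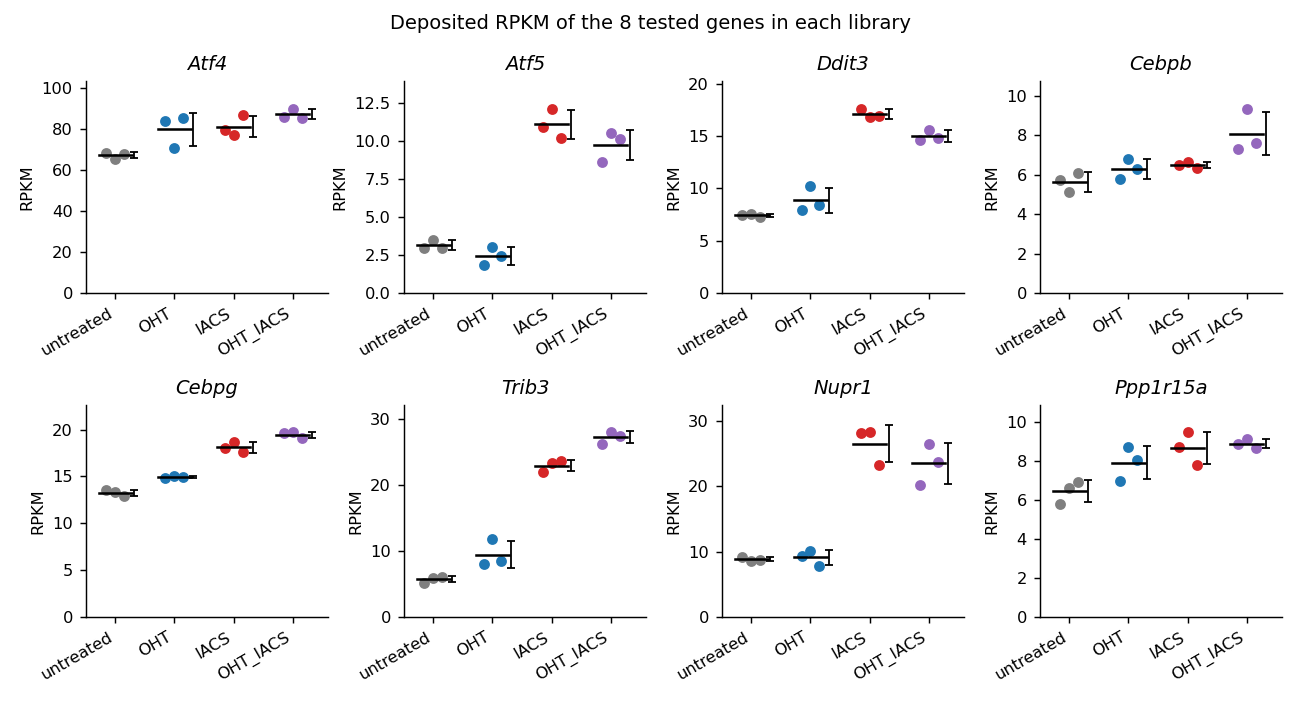
RPKM as deposited (vertical axes from 0, 1 scale per gene) of the 8 tested genes in each of the 12 libraries. Points are libraries in the order of their replicate numbers, horizontal lines are means and bars are SD over 3 libraries. Every IACS and OHT_IACS library of Atf5, Ddit3, Trib3, Nupr1 and Cebpg lies above every untreated and OHT library.

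To ask what complex I inhibition does to these regulators without OHT, IACS was compared with untreated cells. Of the 8 genes tested, 6 rose (limma, adjusted p under 0.05), namely Atf5, Ddit3, Trib3, Nupr1, Cebpg and Ppp1r15a, and all 8 estimates were above 0. Of all 9745 genes tested, 15.9% were called and 8.15% rose. The median log2 fold change was 0.794 over the 8 genes and 0.004 over all genes. The libraries of the groups did not overlap for 8 of 8 genes, against 37.5% of all genes. In such bulk samples, more cells that express a gene and more RNA per cell cannot be told apart.

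Trib3, a pseudokinase that binds and restrains ATF4, had the largest rise. Its RPKM was 5.21, 5.86 and 6.11 in untreated replicates 1 to 3, and 22.0, 23.3 and 23.6 with IACS. The lowest IACS library was well above the highest untreated one. The log2 fold change was 1.96 ± 0.1 (SE), a 3.89-fold rise (adjusted p = 7.8e-08), and 6 of the 9745 genes rose more.

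Atf5, which drives mitochondrial stress genes in mammalian cells, had 3.00, 3.52 and 2.95 in untreated cells and 10.9, 12.1 and 10.2 with IACS. All IACS libraries were above all untreated ones, and the rise was 3.36-fold (log2 1.75 ± 0.13, adjusted p = 2e-06). Nupr1, a small stress-induced chromatin-binding protein, had 9.20, 8.56 and 8.72 in untreated cells and 28.1, 28.2 and 23.2 with IACS. IACS replicate 3 was the lowest of its group and still far above untreated cells, and the rise was 2.91-fold (log2 1.54 ± 0.1, adjusted p = 5e-07).

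Ddit3 encodes CHOP, the pro-apoptotic transcription factor of the ISR. It had 7.47, 7.58 and 7.24 in untreated cells and 17.6, 16.8 and 16.9 with IACS, with little spread in either group. This was a 2.24-fold rise (log2 1.17 ± 0.07, adjusted p = 1.2e-07). Among all genes, Atf5, Nupr1 and Ddit3 ranked 9, 13 and 38 by the size of the rise.

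Cebpg, a dimer partner of ATF4, rose less and evenly. It had 13.5, 13.3 and 12.9 in untreated cells and 18.0, 18.7 and 17.6 with IACS, a 1.34-fold rise (log2 0.42 ± 0.04, adjusted p = 2.3e-05). Ppp1r15a encodes the subunit that directs a phosphatase to eIF2 and so closes the response. It had 5.81, 6.63 and 6.92 in untreated cells and 8.70, 9.46 and 7.80 with IACS, a 1.31-fold rise (log2 0.39 ± 0.08, adjusted p = 0.0041). Cebpb, the other C/EBP partner, was at 5.64 ± 0.494 in untreated cells (at most 6.10) and at 6.51, 6.63 and 6.33 with IACS. Its libraries did not overlap, but the difference of 0.17 ± 0.08 on the log2 scale did not pass the test (adjusted p = 0.18, 95% interval -0.01 to 0.36).

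Atf4 itself had 68.3, 65.7 and 68.0 in untreated cells and 79.7, 77.0 and 87.0 with IACS. The groups did not overlap, and the log2 fold change of 0.24 ± 0.09 (95% interval 0.06 to 0.43, 1.18-fold) did not pass the test (adjusted p = 0.074). Atf4 was read at 0.981 reads per base, in the range where reads levelled off, and its 1501 to 1832 reads per library varied little beside library totals of 10376530 to 14550158. Of the 175 genes tested with 0.8 to 1.2 reads per base, 4 were called, the median log2 fold change was 0.09 and the largest was 0.3. Among them Atf4 ranked 5 from the top. This range was chosen after the data were seen. With library depth (the log2 total) in the fit, Atf4 was 0.12 (adjusted p = 0.0029), and after quantile normalization it was 0.16 (adjusted p = 0.00035). Without OHT replicate 1 or 2 the estimate stayed at 0.24 with adjusted p = 0.048 and 0.012. The other 7 genes had 0.0825 to 0.212 reads per base, in ranges where the median slope of reads on the library total was 1.02 to 1.36.

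**Figure D2:**
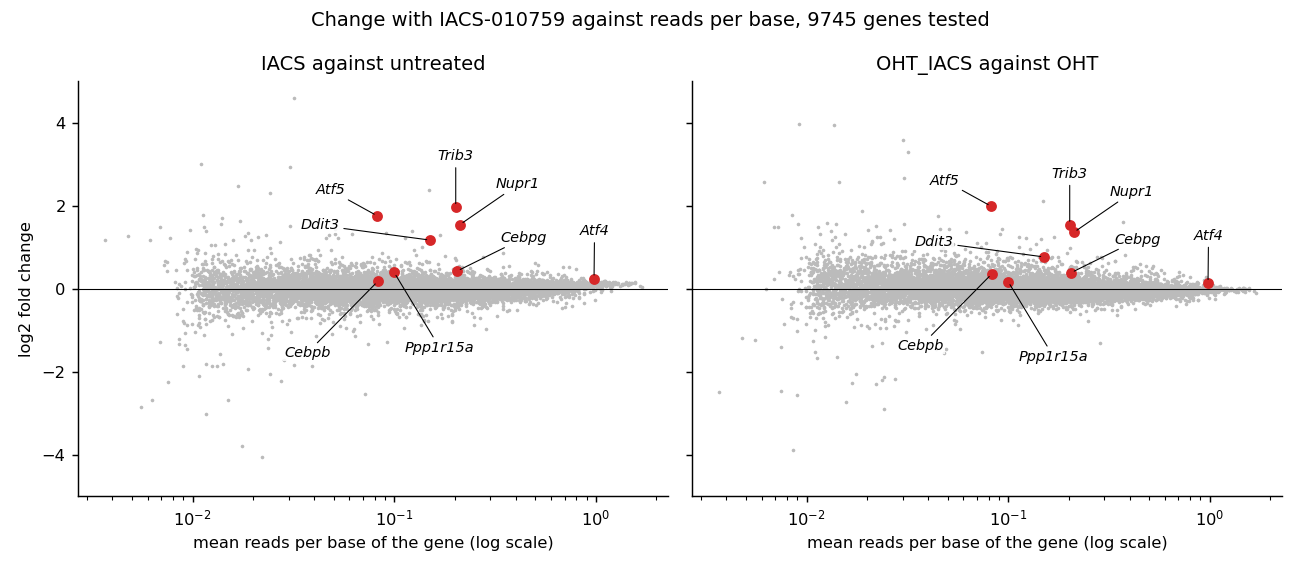
Log2 fold change with IACS-010759 (vertical axis) against the mean reads per base of the gene (horizontal log axis) for the 9745 genes tested (grey) and the 8 regulators (red, named), in nonprimed cells (left) and OHT-primed cells (right). The spread of all genes narrows towards the right, where Atf4 lies at 0.981 reads per base.

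In OHT-primed cells, 6 of the 8 genes rose with IACS-010759 (OHT_IACS against OHT), and all 8 estimates were again above 0. The 6 were Atf5, Ddit3, Trib3, Nupr1, Cebpb and Cebpg. Of all genes, 23.7% were called and 11.9% rose. The median log2 fold change was 0.572 over the 8 genes and -0.014 over all genes. In RPKM as deposited, libraries did not overlap for 7 of the 8, against 35.1% of all genes. The 7 included Atf4, by 85.4 in OHT 3 against 85.5 in OHT_IACS 3. After the scaling of libraries used in the fit, Atf4 overlapped (86.1 in OHT 1, 86.0 in OHT_IACS 3). Ppp1r15a then did not overlap (at most 8.51 with OHT, at least 8.69 with OHT_IACS). OHT_IACS against OHT shares no library with IACS against untreated cells.

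Atf5 had 1.84, 3.06 and 2.42 with OHT and 8.63, 10.5 and 10.1 with OHT_IACS. It had the largest rise of the list here, 3.95-fold (log2 1.98 ± 0.13, adjusted p = 5e-07). Trib3 had 8.03, 11.8 and 8.56 with OHT and 26.3, 28.0 and 27.5 with OHT_IACS. OHT replicate 2 was the highest control and still below every OHT_IACS library, and the rise was 2.9-fold (log2 1.54 ± 0.1, adjusted p = 5.7e-07).

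Nupr1 had 9.39, 10.1 and 7.86 with OHT and 20.2, 26.5 and 23.7 with OHT_IACS, a 2.56-fold rise (log2 1.36 ± 0.1, adjusted p = 1.3e-06). Ddit3 had 7.97, 10.2 and 8.42 with OHT and 14.6, 15.6 and 14.8 with OHT_IACS, a 1.69-fold rise (log2 0.76 ± 0.07, adjusted p = 5.7e-06). For both genes all treated libraries were above all controls. Cebpg rose 1.3-fold, from 14.9 ± 0.114 to 19.5 ± 0.326 (log2 0.38 ± 0.04, adjusted p = 3.6e-05).

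Cebpb had 5.77, 6.81 and 6.30 with OHT and 7.31, 9.35 and 7.61 with OHT_IACS. OHT_IACS replicate 2 was the highest of all 12 libraries, and the rise of 1.28-fold passed the test (log2 0.35 ± 0.08, adjusted p = 0.0094). Ppp1r15a went from 7.92 ± 0.858 to 8.88 ± 0.241, with libraries that overlapped as deposited (log2 0.17 ± 0.08, adjusted p = 0.13), and it passed without OHT replicate 2 (0.23, adjusted p = 0.047). Atf4 had 83.9, 70.6 and 85.4 with OHT and 86.1, 90.0 and 85.5 with OHT_IACS. The difference of 0.13 ± 0.09 on the log2 scale did not pass the test (adjusted p = 0.29, 95% interval -0.05 to 0.32), and without OHT replicate 2 it was 0.04. It ranked 6 from the top of the 175 genes of similar reads per base, whose median was -0.03. With library depth in the fit it was 0.15 (adjusted p = 0.00023).

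**Figure D3:**
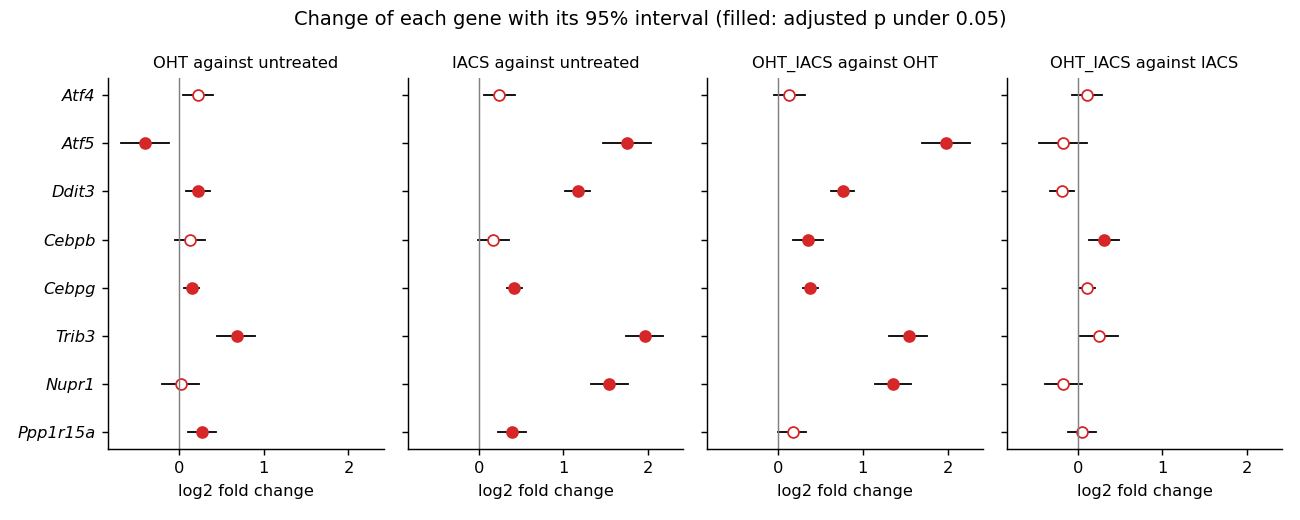
Log2 fold change (horizontal axis) of the 8 tested genes in the 4 comparisons, as estimates with 95% intervals from the fit of all 12 libraries. Filled points passed the test (adjusted p under 0.05), as 6 did in each IACS-010759 response.

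Whether priming changed the response to IACS-010759 was tested as the interaction of OHT and IACS. In limma none of the 8 genes passed, against 0.144% of all genes called. An unadjusted p under 0.05 was found for 2 of the 8, and for 1240 of all 9745 genes. With limma voom on the recovered reads none passed either. The 2 of the 8 with an unadjusted p under 0.05 in limma were Ddit3 and Trib3. The response of Ddit3 was smaller in primed cells by 0.41 on the log2 scale (interaction -0.41 ± 0.09, unadjusted p = 0.00078, adjusted p = 0.13). For Trib3 the interaction was -0.42 ± 0.15 (unadjusted p = 0.012, adjusted p = 0.26). Without OHT replicate 2 the interaction of Ddit3 was -0.31 and passed (adjusted p = 0.045), and that of Trib3 was -0.26 (adjusted p = 0.12). In that fit 130 of all 9728 genes tested were called, against 14 with all 12 libraries. Atf5 (0.23, 95% interval -0.17 to 0.63) and Nupr1 (-0.19, -0.49 to 0.12) had intervals on both sides of 0. So had Atf4 (-0.11, -0.37 to 0.15), Cebpb (0.18, -0.08 to 0.44), Cebpg (-0.04, -0.16 to 0.09) and Ppp1r15a (-0.22, -0.45 to 0.01).

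OHT alone, which switches on MycER, changed each of the 8 genes by less than IACS alone did. Beside the response of primed cells this did not hold for Atf4 (log2 0.22 with OHT, 0.13 in primed cells) and Ppp1r15a (0.27 and 0.17). All libraries were of MycER cells, so an effect of OHT itself cannot be told apart from that of MycER. With OHT against untreated cells 4 of the 8 rose and 1 fell, where 36.4% of all genes were called. In RPKM as deposited, 5 had libraries that did not overlap, against 45.8% of all genes. The 5 included Atf4, whose libraries overlapped after the scaling used in the fit (69.1 in OHT 2, 69.4 in untreated 1). The median log2 fold change of the 8 genes was 0.186, against 0.013 over all genes. Trib3 rose 1.6-fold (log2 0.68 ± 0.1, adjusted p = 0.00024), and its OHT libraries, at 8.03, 11.8 and 8.56, were all above the highest untreated value of 6.11. Without OHT replicate 2 its log2 change was 0.52.

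The other OHT changes were slight or rested on few libraries. Ppp1r15a had 6.99, 8.69 and 8.07 with OHT, all above untreated cells (log2 0.27 ± 0.08, adjusted p = 0.015), but did not pass without OHT replicate 2 (0.21, adjusted p = 0.053) or without untreated replicate 1 (0.20, adjusted p = 0.073). Ddit3 rose from 7.43 ± 0.174 to 8.86 ± 1.18 (log2 0.22 ± 0.07, adjusted p = 0.019), and did not pass without untreated replicate 3 (0.20, adjusted p = 0.072), with limma voom on the recovered reads (0.24, adjusted p = 0.1) or with only the groups compared (0.22, adjusted p = 0.059). The rise of Ddit3 was 0.13 without OHT replicate 2 (adjusted p = 0.047). Cebpg rose from 13.2 ± 0.321 to 14.9 ± 0.114 (log2 0.15 ± 0.04, adjusted p = 0.011), and did not pass without untreated replicate 3 either (0.13, adjusted p = 0.057). With library depth in the fit the change of Cebpg was 0.14 and did not pass (adjusted p = 0.073).

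Atf5 was the gene that fell with OHT, from 3.16 ± 0.314 to 2.44 ± 0.609 (log2 -0.4 ± 0.13, adjusted p = 0.029). Its libraries overlapped, and the call was lost without untreated replicate 2 (-0.33, adjusted p = 0.11), without OHT replicate 1 (-0.25, adjusted p = 0.12) or without OHT replicate 3 (-0.40, adjusted p = 0.069). It was also lost with no filter (adjusted p = 0.058), with limma voom (-0.38, adjusted p = 0.07), with only the groups compared (adjusted p = 0.074) and with library depth in the fit, where the change of Atf5 was -0.12 (adjusted p = 0.52). The change of Atf5 was -0.57 without OHT replicate 2 (adjusted p = 0.0022). Atf4 was at 83.9, 70.6 and 85.4 with OHT, with replicate 2 near untreated cells (log2 0.22 ± 0.09, adjusted p = 0.06). Without OHT replicate 2 it was 0.32 (adjusted p = 0.0019), without IACS replicate 3 it stayed at 0.22 (adjusted p = 0.042), and with library depth in the fit it was 0.01 (adjusted p = 0.72). It ranked 53 of the 175 genes of similar reads per base, whose median was 0.19. Nupr1 (log2 0.02 ± 0.1, adjusted p = 0.92) and Cebpb (0.13 ± 0.08, adjusted p = 0.23) did not pass.

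Among cells given IACS-010759, those primed with OHT differed in 1 of the 8 genes (OHT_IACS against IACS), where 26.5% of all genes were called. In RPKM as deposited, libraries did not overlap for 4 of the 8, against 40.4% of all genes. After the scaling used in the fit, those of Atf5 did not overlap either (at most 10.3 with OHT_IACS, at least 10.4 with IACS). Cebpb was 1.24-fold higher with OHT_IACS (log2 0.31 ± 0.08, adjusted p = 0.015), and without OHT_IACS replicate 2, its highest library, it did not pass (0.22, adjusted p = 0.065). Ddit3 was at 14.6, 15.6 and 14.8 against 17.6, 16.8 and 16.9, so that every primed library was lower (log2 -0.18 ± 0.07, adjusted p = 0.057). Trib3 was higher in every primed library, at 26.3, 28.0 and 27.5 against 22.0, 23.3 and 23.6 (log2 0.25 ± 0.1, adjusted p = 0.092). Cebpg was also higher in every primed library (log2 0.11 ± 0.04, adjusted p = 0.057). Without OHT replicate 2, which enters these through the shared estimate of the spread, all 3 passed, with adjusted p = 0.0075 for Ddit3, 0.0071 for Trib3 and 0.049 for Cebpg. Without OHT replicate 1, Ddit3 (adjusted p = 0.041) and Cebpg (adjusted p = 0.048) passed. Atf4 (0.11), Atf5 (-0.17), Nupr1 (-0.17) and Ppp1r15a (0.05) did not pass.

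Most genes that ATF4 is known to drive rose with IACS-010759. Of 49 such genes other than those above, 42 were tested. With IACS, 36 rose and 1 fell (88.1% of the list called, against 15.9% of all genes), and their median log2 fold change was 0.338. In primed cells 31 rose and 1 fell (76.2%, against 23.7%), with a median of 0.255. With OHT alone 16 rose and 3 fell (45.2%, against 36.4%), with a median of 0.129. Among cells given IACS-010759, OHT_IACS was higher in 9 and lower in 3 (28.6%, against 26.5%), with a median of 0.063. Without OHT replicate 2 the counts were 39 and 1, 30 and 1, 23 and 5, and 12 and 3 in the same order.

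Pycr1, which makes proline, rose with IACS from 2.38 ± 0.141 to 6.72 ± 0.402 RPKM (log2 1.43 ± 0.08, adjusted p = 1.2e-07). Slc7a11, the cystine transporter, rose from 3.55 ± 0.23 to 9.36 ± 0.452 (log2 1.35 ± 0.07, adjusted p = 7.8e-08) and in primed cells from 4.67 ± 0.558 to 11.7 ± 0.109 (log2 1.31 ± 0.07, adjusted p = 1e-07). Slc6a9, a glycine transporter, rose by 1.33 ± 0.13 (adjusted p = 1.8e-05) and in primed cells by 1.36 ± 0.13 (adjusted p = 9.2e-06). Fam129a rose in primed cells from 2.06 ± 0.473 to 5.66 ± 0.507 (log2 1.44 ± 0.12, adjusted p = 4e-06). The gene that fell in both responses was Psph, the last enzyme of serine synthesis, by 0.75 (adjusted p = 0.0031) and 0.50 (adjusted p = 0.02) on the log2 scale. In primed cells this call was lost without OHT_IACS replicate 1 or OHT_IACS replicate 3. Psph is named after its values were seen.

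**Figure D4:**
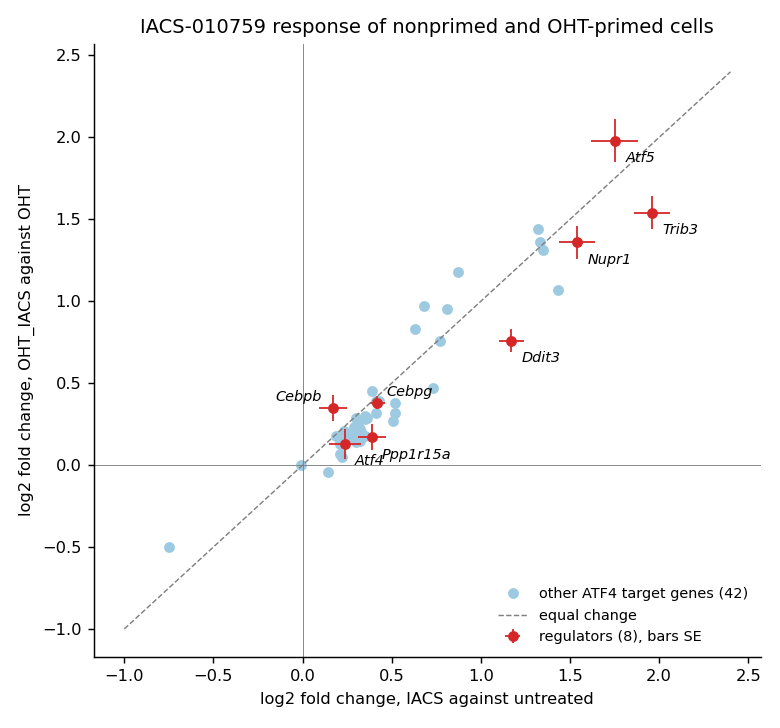
Log2 fold change with IACS-010759 in nonprimed cells (horizontal axis) and in OHT-primed cells (vertical axis) for the 8 tested regulators (red, bars SE) and 42 other ATF4 target genes (blue), with a dashed line where both changes are equal. Ddit3 and Trib3 lie below that line by 0.41 and 0.42 on the log2 scale, and neither difference passed the adjusted test.

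Other bZIP genes whose products can pair with these factors moved both ways. Of 39, 27 were tested. With IACS 7 rose and 3 fell (37.0% of the list, against 15.9% of all genes), with a median log2 fold change of 0.05. In primed cells 9 rose and 5 fell (51.9%, against 23.7%), with a median of 0.078. Jdp2, a repressor of the AP-1 family that can bind CHOP and ATF3, rose from 7.53 ± 0.552 to 11.9 ± 0.985 RPKM (log2 0.63 ± 0.06, adjusted p = 3.7e-05) and in primed cells from 5.39 ± 0.308 to 11.0 ± 0.62 (log2 1.01 ± 0.06, adjusted p = 4.3e-07). Nfe2l1, a regulator of proteasome genes, rose by 0.49 ± 0.05 (adjusted p = 5.1e-05) and 0.51 ± 0.05 (adjusted p = 2.7e-05) in the same order. Jun rose with IACS from 0.336 ± 0.0712 to 0.687 ± 0.152 RPKM (log2 0.82 ± 0.24, adjusted p = 0.031). Both groups were below the RPKM of 1 set for testing, which Jun reached only in libraries with OHT. Maff fell by 0.91 ± 0.26 in primed cells (log2 -0.91, adjusted p = 0.023). These counts depended on single libraries. In nonprimed cells they were 4 and 2 without untreated replicate 2 or without IACS replicate 1, and in primed cells 7 and 2 without OHT replicate 1 or 3. With OHT alone 8 of the 27 rose and 6 fell (51.9%, against 36.4% of all genes). With OHT_IACS against IACS 9 were higher and 5 lower (51.9%, against 26.5%), so a high share was not particular to IACS-010759.

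Upstream of ATF4, the mRNAs of the eIF2 kinases, the eIF2 and eIF2B subunits and the phosphatase subunits other than Ppp1r15a were tested for all 16 genes. Ppp1r15a, which rose with IACS as given above, is not counted among them. With IACS 1 was called, a fall (6.25% of the list, against 15.9% of all genes), and in primed cells 1 rose and 3 fell (25.0%, against 23.7%). Eif2b2, a subunit of the exchange factor that recharges eIF2, fell from 22.4 ± 1.04 to 18.4 ± 1.42 RPKM (log2 -0.31 ± 0.06, adjusted p = 0.0032) and in primed cells from 23.6 ± 0.63 to 19.6 ± 1.34 (log2 -0.27 ± 0.06, adjusted p = 0.0055). Its partners Eif2b1 (log2 -0.25 ± 0.05, adjusted p = 0.0035) and Eif2b4 (log2 -0.17 ± 0.05, adjusted p = 0.017) also fell in primed cells. Eif2ak3 (PERK), the kinase of endoplasmic reticulum stress, had log2 changes of -0.17 ± 0.11 (adjusted p = 0.31) and -0.27 ± 0.11 (adjusted p = 0.087). With IACS 1 rose and 1 fell without OHT replicate 1, and 1 rose and 2 fell without OHT replicate 2. In primed cells the counts were 1 and 6 without OHT replicate 2, and 0 and 2 without OHT replicate 3 or without OHT_IACS replicate 1. With OHT alone 5 of the 16 rose and 1 fell (37.5%, against 36.4% of all genes). These were 9 and 1 without OHT replicate 2, and 1 and 1 with library depth in the fit.

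Of the paralogs of the feedback genes, Ppp1r15b and Chac2 were tested out of 4. Ppp1r15b, the constitutive counterpart of Ppp1r15a, was at 31.6 ± 0.613 RPKM with OHT and 34.6 ± 0.714 with OHT_IACS (log2 0.13 ± 0.04, adjusted p = 0.039). That call was lost when any of 9 libraries was left out. Neither paralog was called in nonprimed cells, where Chac2 had a log2 change of -0.26 and Ppp1r15b one of 0.04. Without untreated replicate 3 or without OHT replicate 1, Chac2 was called there as a fall.

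Of 7 genes linked to CHOP in cell death and oxidative folding, 5 were tested, and 2 rose in each response to IACS-010759, where 15.9% (IACS) and 23.7% (primed cells) of all genes were called. Ero1l, an oxidase of the endoplasmic reticulum, rose from 20.9 ± 0.0783 to 27.7 ± 0.972 RPKM with IACS (log2 0.37 ± 0.05, adjusted p = 0.0003). Bcl2, which opposes apoptosis, rose by 0.31 ± 0.05 (adjusted p = 0.00079) and in primed cells by 0.47 ± 0.05 (adjusted p = 2.2e-05). Bbc3 (PUMA) passed in primed cells (log2 0.42 ± 0.11, adjusted p = 0.012) and not in nonprimed cells (0.21 ± 0.11, adjusted p = 0.21), and the interaction was 0.22. Without OHT_IACS replicate 2, 1 of the 5 rose in primed cells. Bcl2l11 (Bim) had changes of -0.38 ± 0.14 (adjusted p = 0.082) and -0.18 ± 0.14 (adjusted p = 0.38). Hrk had 4 reads in all libraries together, and Pmaip1 (NOXA) was listed at 0. Pck2, a mitochondrial enzyme and ATF4 target, rose by 0.87 ± 0.04 (adjusted p = 7.8e-08) and 1.18 ± 0.04 (adjusted p = 2.7e-09). The primed rise of Pck2 started from a level that was lower with OHT (log2 -0.53 ± 0.04, adjusted p = 1.8e-06). Its mean RPKM was 21.3 in untreated cells, 15.0 with OHT, 39.7 with IACS and 34.1 with OHT_IACS. Gpx1, a glutathione peroxidase, had changes of 0.14 ± 0.08 (adjusted p = 0.23) and 0.08 ± 0.08 (adjusted p = 0.46).

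The genes whose log2 level was most like that of a regulator over the 12 libraries were named by their Pearson r, as a description. For Ddit3 these were Cox6a2 (r = 0.996), Extl1 (0.979) and Gpr141 (0.977), and for Trib3 they were Slc7a11 (0.989), Aqp9 (0.988) and Slc6a9 (0.978). The r of Ddit3 with the other regulators was 0.973 for Nupr1, 0.965 for Trib3, 0.944 for Atf5 and 0.925 for Cebpg, and lower for Ppp1r15a (0.804), Cebpb (0.625) and Atf4 (0.575). All 12 libraries enter each r, and these genes share the difference between cells with and without IACS-010759. For Atf4 the most alike were Eif3c (0.976), Psat1 (0.975) and Banf1 (0.973), which like Atf4 had many reads per base (0.865, 0.827 and 0.818), whereas its r with Trib3 was 0.676 and with Atf5 0.422. The libraries' totals are shared by all these points.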

How the data were processed

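Total RNA of FL5.12 MycER cells was sequenced after Ribo-zero depletion in 12 libraries (4 conditions, 3 biological replicates each, TruSeq stranded kit). The submitters' processing notes name TopHat2 2.0.8, SAMtools, featureCounts 1.4.5-p1, DESeq2 and the build mm9; the gene annotation is not given in the sources used here. The authors deposited RPKM per gene and library, and beside them, as deposited, the results of 3 DESeq2 comparisons of their own (a log2 fold change and an adjusted p-value for each gene), which were not used.

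From the steps between RPKM values, whole reads (tolerance 0.001), lengths and totals were recovered. Median-ratio scaling was applied to the libraries. The 9745 genes that reached an RPKM of 1 in 3 or more libraries were compared as log2(RPKM + 0.1) in a single limma fit with a mean-variance trend. Tests were two-sided, p-values were adjusted per comparison (Benjamini-Hochberg), and 0.05 was the threshold. Fold changes are on that scale and understate changes of low genes. Each value in the text is RPKM as deposited unless a log2 change is named. RPKM compares levels between genes per length. Library totals ran from 10376530 to 14550158, and floors cover counting error only.

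Over all genes, reads of IACS replicates 1 and 2 differed about as much as sampling noise gives (chi-square per gene 1.02, p = 0.085). Over genes under 0.1 reads per base, a limit set after that value was seen, all 12 pairs of replicates differed by more (1.08 to 1.88; 1.09 for IACS 1 and 2), so all 12 libraries were kept, and averaging IACS 1 and 2 was tried as an alternative. Same-numbered libraries did not deviate together.

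The genes and lists were chosen with earlier results of these data known. Named genes were the 10 regulators, the ISR genes the paper names, the 3 called genes per list and IACS-010759 response with the largest change and no overlap of libraries, and the 3 genes most like Atf4, Ddit3 and Trib3. Alternatives were RPKM as deposited, quantile normalization, other pseudocounts (0.01, 1), no filter, a stricter filter (RPKM of 5), the replicate number as a block, library depth (log2 total) as a covariate, limma voom on recovered reads, only the groups compared, and each library left out in turn. 1 listed marker gene is not reported here. The fit was tested on simulated data. The files' build is mm9, and GRCm38.p6 coordinates belong to the RefSeq promoters alone. Versions were R 4.3.3, limma 3.58.1, python 3.11.15, numpy 2.4.6, pandas 2.3.3, scipy 1.17.1 and matplotlib 3.10.9.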

Additional observations from a re-analysis of the deposited data

Results flagged for a closer look

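The OHT libraries of Ddit3 lay on opposite sides of their controls without and with IACS-010759. All 3 OHT libraries (7.97, 10.2 and 8.42 RPKM) were above the untreated mean of 7.43, and all 3 OHT_IACS libraries (14.6, 15.6 and 14.8 RPKM) were below the IACS mean of 17.1, a difference that did not pass the test (log2 -0.18, adjusted p = 0.057). The difference between these effects was -0.41 on the log2 scale and did not pass the interaction test of limma (adjusted p = 0.13).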

How the results depend on the processing

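In nonprimed and primed cells the number of the 8 genes changed by IACS-010759 stayed at 6 or 7 under all 23 alternatives. With OHT against untreated cells it was 5, but 3 with library depth (log2 total) as a covariate and with only the groups compared, 4 with no filter and with limma voom, 6 on RPKM as deposited and after quantile normalization, and 3 to 6 with a library left out. With OHT_IACS against IACS it was 1, but 3 after quantile normalization and with only the groups compared, 2 with a pseudocount of 1, with library depth as a covariate and with limma voom, and 0 to 4 with a library left out. For the interaction it was 0 in all but the fit without OHT replicate 2 (0 to 1 with a library left out). With the replicate number as a block the counts were 6, 6, 6, 1 and 0 for OHT, IACS, primed IACS, primed against nonprimed IACS, and the interaction. Of the 18 pairs of same-numbered libraries 1 had a correlation of deviations over 0.1 (-0.172 to 0.104), so the numbers were not read as pairs. The sixth gene under the block was Atf4 with OHT (0.22, adjusted p = 0.042).

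Of 912 refitted values of single genes 863 kept their direction and side of the threshold, 15 lost and 29 gained the threshold, and 5 changed sign, all near 0: the Atf4 interaction with library depth as a covariate (0.03), Nupr1 with OHT without untreated replicate 2 (-0.0044), OHT replicate 1 (-0.03) or OHT replicate 2 (-0.05; range with a library left out -0.05 to 0.13), and Ppp1r15a with OHT_IACS against IACS without IACS replicate 3 (-0.0052, range -0.0052 to 0.1). Of the 29, 16 were of Atf4. Averaging IACS replicates 1 and 2, chosen after seeing the data, changed no call of these genes.

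Counts over all genes moved most for the interaction, from 14 to 3 (without OHT 3 or OHT_IACS 3) and 130 (without OHT 2), with 5 on RPKM as deposited and with library depth as a covariate, 7 with no filter and with the replicate block, 34 after quantile normalization and 25 with voom. OHT against untreated cells gave 3546 and, with library depth as a covariate, 2351. IACS gave 1548, and 951, 998 and 1026 without untreated 1, untreated 2 or IACS 3. OHT_IACS against OHT gave 2310 and, without OHT_IACS 3, 1524. Of the calls with IACS 51.3% rose, and 64.9% on RPKM as deposited. The causes were not tested. With 3 libraries a group and reads that level off on abundant genes, small changes of Atf4 mRNA are poorly resolved.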
